A study of Mus musculus with 4 samples.

Results

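The genes described here are 5 members of the mouse regenerating islet-derived (Reg) family of small secreted C-type lectins, Reg1, Reg3a, Reg3b, Reg3g and Reg4, taken by name from the 32285 genes in the feature lists of both deposited single-cell libraries. The study traced the progeny of Lgr5-expressing stem cells in the epithelium of the distal small intestine, with villi scraped off before the crypts were taken. All 8 mice carried the Lgr5-EGFP-IRES- CreERT2 allele and the Rosa26-mTmG reporter, and all received 4-OH-tamoxifen, which activates the recombinase in cells that express Lgr5. From every mouse, after staining for EpCAM, CD31 and CD45, GFP-high cells (called clones) and GFP-negative, unrecombined cells (called control cells) were sorted. Mice 1 to 4 were traced for 48 h and mice 5 to 8 for 72 h. The control cells thus share the alleles and the drug with the clones and differ by the gate. Both the Lgr5 allele (EGFP) and the recombined reporter (GFP) give green fluorescence, and the position of the gate is not given in the sources used here. A sort by Lgr5 expression and a sort by recombination therefore cannot be told apart.

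Reg3 proteins are antibacterial lectins that intestinal epithelial cells secrete into the mucus. Reg3g binds the peptidoglycan of Gram-positive bacteria and keeps them away from the epithelial surface, and Reg3b acts mainly on Gram-negative bacteria. In the mouse intestine, interleukin-22 acting through STAT3, and microbial signals acting through MyD88, are known to raise Reg3b and Reg3g. Reg1 is linked to growth and repair of the epithelium and of pancreatic islets, and Reg4 is known as a product of deep secretory cells of the colon and of some enteroendocrine cells of the small intestine.

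Reg1, Reg3a, Reg3b and Reg3g lie together on mouse chromosome 6, and Reg4 lies alone on chromosome 3. In GENCODE M21 on GRCm38, Reg3b is at chr6:78370657-78373466 (plus strand), Reg3a at chr6:78380709-78383827 (plus strand), Reg1 at chr6:78422711-78428667 (plus strand) and Reg3g at chr6:78466269-78468872 (minus strand). With Reg3d and Reg2, which lie between them, these 6 genes span 98216 bases. Reg4 is at chr3:98222156-98236748 (plus strand).

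The 120 bases before the RefSeq start of each gene (GRCm38.p6) are printed from 5′ to 3′ on the gene's own strand, because Reg3b and Reg3g had the most alike levels across classes and mice and share stretches there. Capitals mark exact runs of at least 10 bases shared by Reg3b and Reg3g, and in Reg1 the TATAAA core of a TATA box.
Reg3b chr6:78370765-78370884, plus strand: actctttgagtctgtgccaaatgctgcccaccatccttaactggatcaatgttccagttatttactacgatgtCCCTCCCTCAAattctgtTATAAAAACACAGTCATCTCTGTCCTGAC
Reg3g chr6:78468875-78468994, minus strand: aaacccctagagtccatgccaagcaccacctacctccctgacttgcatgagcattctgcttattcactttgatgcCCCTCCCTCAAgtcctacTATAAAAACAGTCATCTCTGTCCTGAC
Reg3a chr6:78380589-78380708, plus strand: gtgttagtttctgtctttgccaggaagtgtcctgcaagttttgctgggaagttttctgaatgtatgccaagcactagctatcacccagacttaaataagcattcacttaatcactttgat
Reg1 chr6:78425863-78425982, plus strand: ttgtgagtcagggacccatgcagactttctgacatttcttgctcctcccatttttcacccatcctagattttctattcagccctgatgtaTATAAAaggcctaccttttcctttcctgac
Reg4 chr3:98222036-98222155, plus strand: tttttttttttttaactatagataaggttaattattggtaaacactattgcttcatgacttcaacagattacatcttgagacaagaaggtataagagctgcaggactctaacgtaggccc

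The 20 bases next to the start, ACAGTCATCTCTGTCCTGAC, were identical in Reg3b and Reg3g and occurred in 2 of the 32851 promoters searched (250 bases before each start, both strands), those of Reg3b and Reg3g. TATAAA on the gene's strand began 29 bases before the start in Reg3b, 27 in Reg3g and 30 in Reg1, and it occurred in 7.59% of all promoters. The 250 bases before the starts of Reg3a and Reg4 held no such letters. TTCNNNGAA, the letters of a STAT motif, occurred in 7.02% of promoters on either strand and, among the 5 genes, in that of Reg3b, 129 bases before the start. In GENCODE's transcripts the longest exact run shared by Reg3b and Reg3g was 35 bases, and that shared by Reg3a with either was 24 bases. The read length and the treatment of reads that fit several genes are not given in the sources used here, so a small exchange of counts between these 3 genes was not tested.

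Each pool of cells held both gates and both times, and the clone and control cells of a mouse always came from different pools. Of 3342 barcodes in pool 1 and 2110 in pool 2, 1993 in all were kept as cells, 741 of them clones (110 at 48 h and 631 at 72 h) and 1252 control cells (586 and 666). A clone group held 4 to 83 cells per mouse at 48 h (77566 to 298850 UMIs, counts of tagged RNA molecules) and 40 to 326 cells per mouse at 72 h (813389 to 6370450 UMIs), against 74 to 261 control cells per mouse (1471640 to 5186012 UMIs). Of the 110 clone cells at 48 h, 83 came from mouse 3, with a median of 1841 UMIs and a median of 48.6% of hashtag counts from the top hashtag, whereas the other 15 groups had medians of at least 5662 UMIs and 74.1%. Clusters were built without the 5 genes and named by the markers they resemble: 657 dividing, 436 stem, 256 goblet, 237 secretory progenitor, 173 enterocyte, 62 Paneth, 48 tuft and 34 enteroendocrine-like cells. The enterocyte cluster was led by Fabp6, Slc51a and Slc51b, which handle bile acids in the ileum, and held little RNA of the absorptive genes Apoa1 (148 CPM, UMIs scaled to a common total) and Fabp1 (4.32 CPM). Of the goblet cells, 40 formed a cluster with a median of 1606.5 UMIs. The secretory progenitor cluster also met the naming rule for goblet cells and took its name because Dll1 was among its leading genes. Goblet markers summed to 72133 CPM in it and to 157014 CPM in the goblet class, and progenitor markers to 1213 and 1023 CPM. The Paneth cluster met the goblet rule as well, with goblet markers at 84106 CPM and Paneth markers at 124423 CPM. A further 90 cells led by Gsdmc2, Gsdmc3 and Dmbt1 had too few markers for a name. Levels by class are CPM in the summed cells of a class and mouse with at least 5 cells.

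Reg3b and Reg3g RNA was highest in enterocytes and was found at lower levels in every class. In control cells, Reg3b averaged 26898 ± 10776 CPM in enterocytes (SD, n = 7 mice) and 11558 ± 8045 CPM in the unnamed cluster (n = 6). It averaged 2243 ± 1310 CPM in Paneth cells (n = 5), 2717 ± 2182 CPM in goblet cells, 3278 ± 3111 CPM in dividing cells, 1765 ± 1632 CPM in secretory progenitors and 1147 ± 786 CPM in stem cells (n = 8 each). Enteroendocrine cells, at 164 ± 19.7 CPM (n = 3), were lowest. Reg3g had much the same order, with 10297 ± 5155 CPM in enterocytes, 5705 ± 3913 CPM in the unnamed cluster, 3140 ± 1864 CPM in goblet cells, 2618 ± 1400 CPM in Paneth cells, 2025 ± 1601 CPM in dividing cells, 789 ± 522 CPM in stem cells and 86.3 ± 24.2 CPM in enteroendocrine cells.

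**Figure D1:**
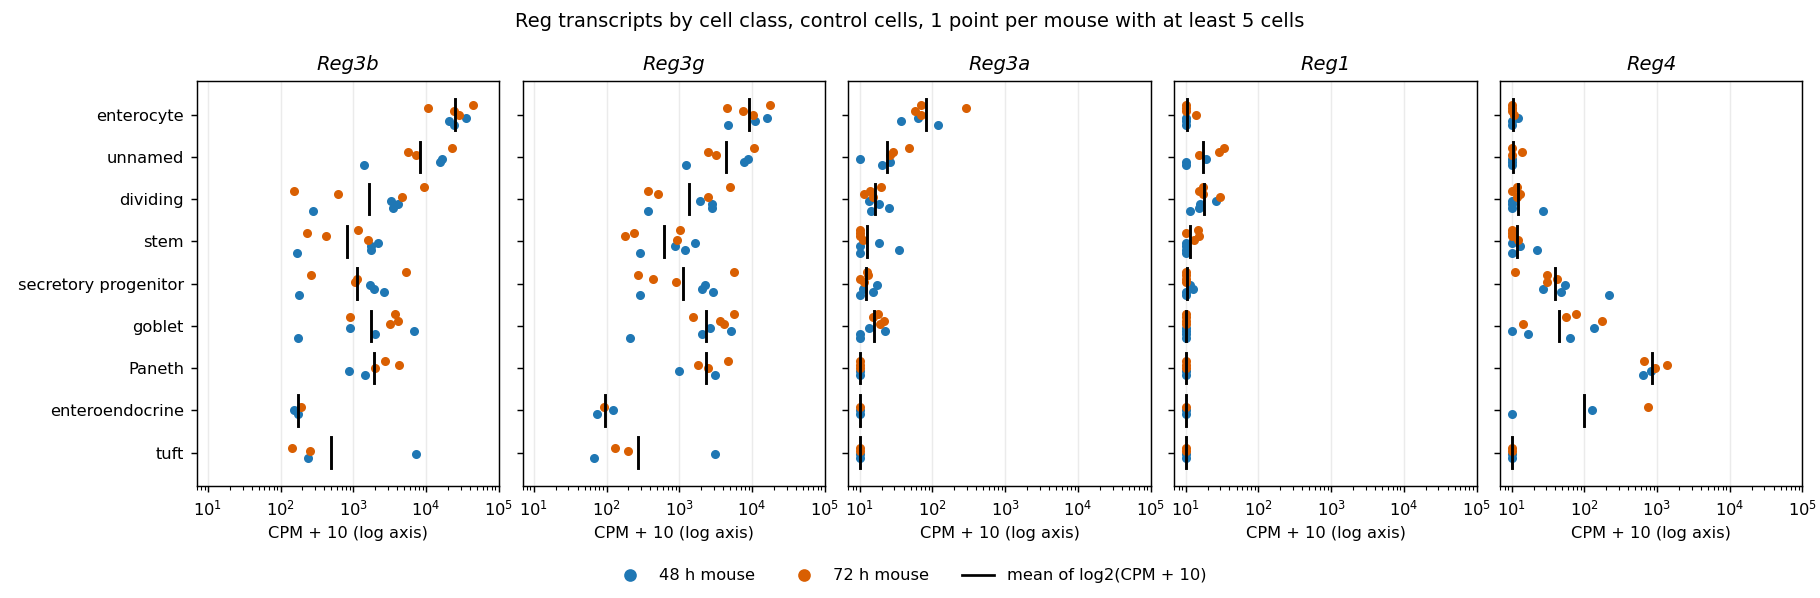
Level of each gene in control cells by class, in CPM + 10 on a log axis; each point is the summed cells of a class in 1 mouse and the bar is the mean over mice on the log scale. The points of Reg3b and Reg3g are highest in enterocytes (10734 to 44145 CPM for Reg3b), those of Reg4 in Paneth cells (624 to 1371 CPM), and Reg1 is near 0 in most classes.

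Within mice, Reg3b was higher in enterocytes than in the unnamed cluster in 6 of 6 mice, by 1.77 ± 1.31 on the log2(CPM + 10) scale (SD; exact sign-flip test over mice, two-sided p = 0.0313, the smallest that 6 mice allow). For Reg3g the same difference was 1.23 ± 0.60 in 6 of 6 mice (exact p = 0.0313). Over the 33 pairs of neighbouring classes tested for the 5 genes, 5 had an unadjusted exact p under 0.05 and 0 passed after Benjamini-Hochberg adjustment (lowest adjusted p 0.206 in the exact tests). The order among Paneth, goblet, dividing, progenitor and stem cells is thus not resolved beyond the spread between mice. Enterocytes were 8.68% of all cells kept and held 54.7% of Reg3b UMIs and 40.2% of Reg3g UMIs.

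Within a class the levels differed widely between cells, and a small part of the cells held much of the RNA. Among cells of both gates with at least 2000 UMIs, the median cell had 641 CPM of Reg3b in the goblet class, 653 CPM in the dividing class and 447 CPM among progenitors, all below the class means above, and the highest cells had 43375, 58516 and 31004 CPM. In enterocytes the median cell had 22031 CPM. Of all Reg3b UMIs, 50% lay in 71 of 1993 cells, and for Reg3g in 107 cells. In the control goblet cells of mouse 3, 1 cell held 2017 of 2763 Reg3b UMIs, and the level of 6759 CPM was 2059 CPM without it.

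The tuft cells, which sense luminal signals, had Reg3b at 134 to 243 CPM in the control cells of 3 mice and at 7213 CPM in mouse 2. In that mouse 1 of 6 tuft cells carried 640 of 655 Reg3b UMIs and 276 of 282 Reg3g UMIs. Without it the level was 233 CPM for Reg3b, inside the range of the other mice. Doublets other than those with several hashtags were not removed.

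Between mice, Reg3b ran over more than an order of magnitude in dividing, goblet, progenitor and stem control cells, and over less in enterocytes. Paneth cells ran between 863 and 4239 CPM, but mice 1, 2 and 7 had under 5 control Paneth cells. In the mice with a Paneth value (3, 4, 5, 6 and 8), stem cells ran between 413 and 2174 CPM and dividing cells between 605 and 9513 CPM. A narrower range in Paneth cells than in stem cells is therefore not shown. In dividing control cells, Reg3b had 270, 3515, 4122 and 3338 CPM in mice 1 to 4 and 4715, 605, 142 and 9513 CPM in mice 5 to 8. In stem control cells it had 160, 1765, 1741 and 2174 CPM in mice 1 to 4 and 1560, 413, 223 and 1142 CPM in mice 5 to 8. Mice 1 and 7 were the lowest in both classes, near the level of enteroendocrine cells, and mouse 6 was next. The enterocytes of mouse 1 had 24160 CPM, inside the range of the other mice, and those of mouse 7 had 10734 CPM, the lowest.

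**Figure D2:**
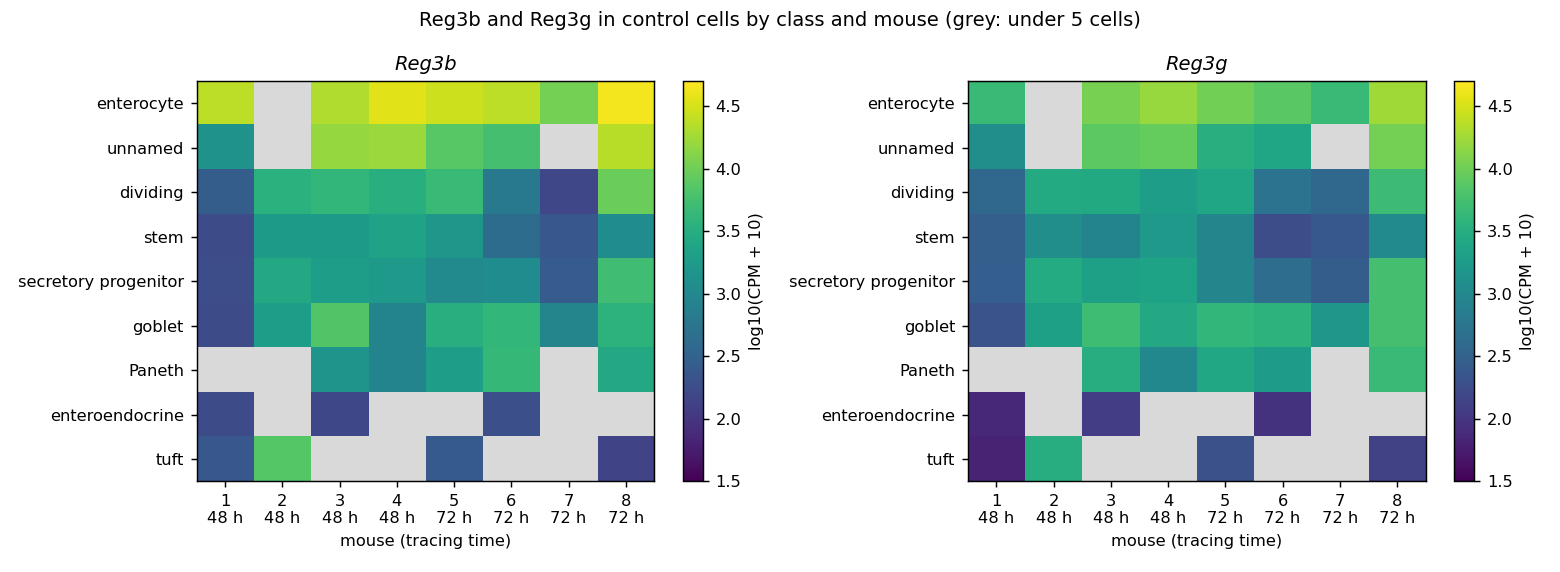
Reg3b and Reg3g in control cells by class (down) and mouse (across, with its tracing time), as log10(CPM + 10) in colour; grey marks under 5 cells. In dividing control cells Reg3b ran between 142 and 9513 CPM and was lowest in mice 7 and 1, whereas in enterocytes it ran between 10734 and 44145 CPM.

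RNA freed from broken cells can add UMIs to any droplet, so the levels were set against barcodes that were not kept. Barcodes under 1000 UMIs had 5300 CPM of Reg3b in pool 1 and 6503 CPM in pool 2, against 6191 and 6745 CPM in the kept cells of those pools. In pool 1, the dividing control cells of mouse 1 and of mouse 5 were sequenced together and differed, with 270 against 4715 CPM. After each cell was thinned to 2000 UMIs, 96.4% of 166 enterocytes and 38.2% of 34 enteroendocrine cells had a Reg3b UMI (100% and 91.2% before thinning, at medians of 28185 and 16145 UMIs). For Reg3g these shares were 98.8% and 17.6%. The dividing cells of mice 1 and 7 were near enteroendocrine cells in Reg3b but above them in Reg3g, with 360 and 359 CPM against 63.6 to 112 CPM. The part of free RNA in these low levels was not tested.

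In control cells the balance of Reg3g to Reg3b differed by class. The ratio of Reg3g to Reg3b UMIs in control cells was 0.383 ± 0.109 in enterocytes (SD, n = 7 mice) and 0.542 ± 0.170 in the unnamed cluster (n = 6). It was 1.43 ± 0.722 in goblet cells, 1.06 ± 0.357 in secretory progenitors, 0.975 ± 0.679 in dividing cells and 0.826 ± 0.430 in stem cells (n = 8 each), and 1.35 ± 0.648 in Paneth cells (n = 5). Against enterocytes of the same mouse, the ratio was higher in goblet cells in 7 of 7 mice, by 1.88 ± 0.75 on the log2 scale (exact sign-flip test, p = 0.0156, the smallest that 7 mice allow; adjusted over 6 classes 0.0313). Secretory progenitors (1.41 ± 0.84) and dividing cells (1.19 ± 1.08) were also higher in 7 of 7 mice, with the same exact p. Stem cells were higher in 6 of 7 mice, by 1.04 ± 1.06 (adjusted exact p = 0.0469). Paneth cells were higher in 5 of 5 mice, by 1.54 ± 0.68, where the smallest exact p is 0.0625, and the unnamed cluster in 5 of 6 (0.55 ± 0.82, exact p = 0.0625). Without mice 1 and 7, whose Reg3b in dividing and stem cells was near that of enteroendocrine cells, the difference was 1.71 in goblet cells and 1.11 in progenitors, still higher in 5 of 5 mice. It was 0.60 in dividing cells and 0.57 in stem cells, higher in 5 of 5 and in 4 of 5 mice. With 5 mice the smallest exact p is 0.0625. The ratio, and leaving out mice 1 and 7, were chosen after the levels had been seen. In clones the ratio was 0.838 ± 0.335 in goblet cells (n = 4) and 0.363 ± 0.039 in enterocytes (n = 3). It was 0.543 ± 0.328 in clone progenitors (n = 3), 0.659 ± 0.155 in dividing and 0.597 ± 0.255 in stem clones (n = 6 each). The lowest progenitor value, 0.235 from 5 cells of mouse 7, lay below the lowest of clone enterocytes, 0.340.

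**Figure D3:**
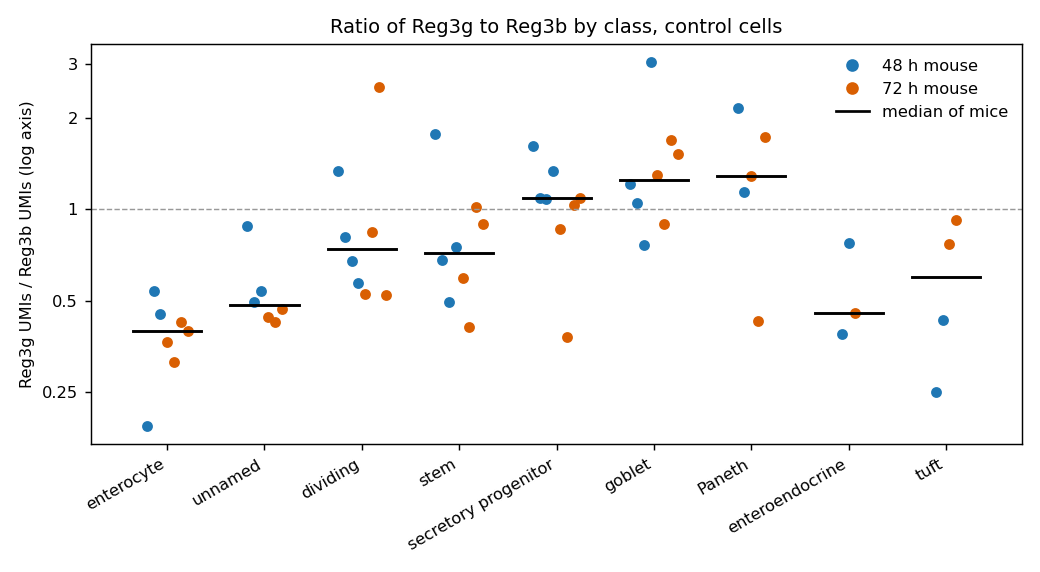
Ratio of Reg3g to Reg3b UMIs by class on a log axis, in control cells, each point being a class in 1 mouse and the bar the median. Enterocytes lie between 0.193 and 0.537, and goblet cells between 0.761 and 3.05.

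Reg3a, a further antibacterial lectin of the family, was a gene of enterocytes at low level: 506 UMIs in 230 of 1993 cells, 61.5% of them in enterocytes. Its control enterocytes had 110 CPM in mouse 1, 27.1 and 54.2 CPM in mice 3 and 4, and 60.6, 48.1, 275 and 60.5 CPM in mice 5 to 8. Mouse 7, which had the lowest Reg3b and Reg3g in enterocytes, thus had the highest Reg3a there, in 8 cells. 24 of its 57 UMIs lay in 1 cell, and without that cell the level was 187 CPM, still the highest. The unnamed cluster averaged 16.5 ± 12.3 CPM (n = 6), below enterocytes in 6 of 6 mice (difference 1.46 ± 0.96 on the log2 scale, exact p = 0.0313, not passing after adjustment). Dividing and goblet cells averaged 6.50 ± 4.41 and 6.12 ± 4.75 CPM (n = 8 each), and Paneth, enteroendocrine and tuft control cells had 0 UMIs.

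Reg1 was close to the detection limit, with 184 UMIs in 80 cells. Dividing cells held 63.6% of them, against 33.0% of all cells. Control cells averaged 8.57 ± 6.14 CPM in dividing cells (n = 8), 9.45 ± 9.78 CPM in the unnamed cluster (n = 6) and 1.65 ± 2.36 CPM in stem cells (n = 8). Reg1 had 0 UMIs in Paneth, goblet, enteroendocrine and tuft control cells. Of its UMIs, 50% lay in 17 cells.

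Reg4 was the member of the secretory classes, and Paneth cells, which secrete defensins at the crypt base, held 66.5% of its 2430 UMIs with 3.11% of the cells. Control Paneth cells had 624 and 828 CPM in mice 3 and 4, and 930, 1371 and 650 CPM in mice 5, 6 and 8. Goblet cells averaged 58.6 ± 60.5 CPM and secretory progenitors 47.6 ± 66.1 CPM (n = 8 each). Dividing cells averaged 2.95 ± 5.72 CPM, stem cells 2.16 ± 4.21 CPM (n = 8 each) and enterocytes 0.456 ± 0.867 CPM (n = 7), and tuft control cells had 0 UMIs. Paneth cells exceeded goblet cells in 5 of 5 mice, by 4.14 ± 1.71 on the log2 scale, where the smallest exact p is 0.0625. Secretory progenitors exceeded dividing cells in 7 of 8 mice, by 1.71 ± 0.92 (exact p = 0.0156, not passing after adjustment).

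After thinning to 2000 UMIs, 46.7% of 15 clone Paneth cells had a Reg4 UMI (95% Wilson interval 24.8 to 69.9%), against 57.4% of 47 control Paneth cells (43.3 to 70.5%). These intervals overlap and cover counting error only. Before thinning, at medians of 31388 and 32449 UMIs, the shares were 86.7% and 89.4%. Thinned goblet cells showed 5.56% in clones and 7.83% in control cells, and progenitors 9.23% and 6.43%. Before thinning, 2 of 130 control enterocytes had a Reg4 UMI, and after it 0 of 128 did.

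**Figure D4:**
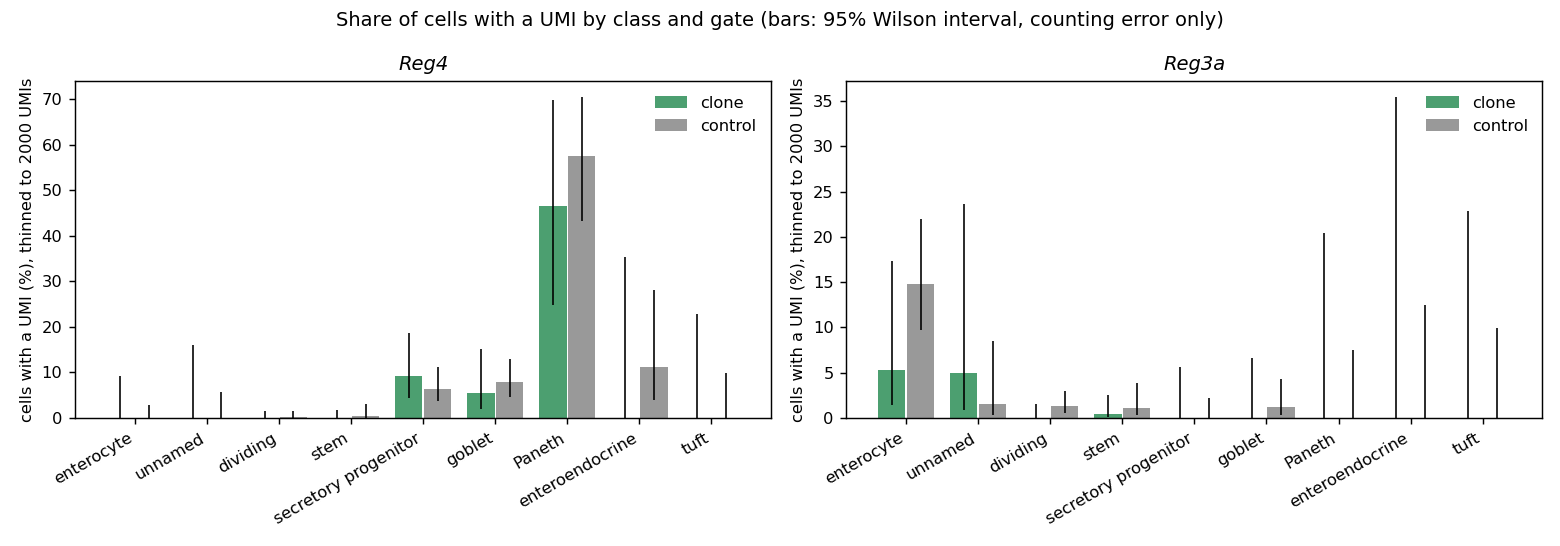
Share of cells with at least 1 UMI of Reg4 and of Reg3a by class after thinning to 2000 UMIs, in percent, clones (green) left of control cells (grey); lines are 95% Wilson intervals. Reg4 stands out in Paneth cells of both gates (46.7% of clones and 57.4% of control cells) and Reg3a in enterocytes (5.26% of clones and 14.8% of control cells). Before thinning, 51.2% of clone and 58.5% of control enterocytes had a Reg3a UMI, at 65.1 and 69.4 CPM in the summed cells.

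Paneth products were also present in the goblet and progenitor classes, where Defa24, a Paneth defensin, had 6015 and 1529 CPM in control cells. The ratio of Reg4 to Defa24 UMIs was 0.0198 in Paneth cells and 0.0102 in goblet cells of pool 1, and 0.0100 and 0.0103 in pool 2. Secretory progenitors had 0.0740 in pool 1 and 0.00958 in pool 2, and the control progenitors of mouse 1, in pool 1, had 208 CPM of Reg4 where the other 7 mice had 1.20 to 44.4 CPM. In that group 47 of 133 UMIs lay in 1 cell, and the remaining cells had 140 CPM. The part of free Paneth RNA or of mixed cells in the goblet and progenitor values was not tested.

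Enteroendocrine cells, the hormone-producing cells of the epithelium, had the next highest mean of Reg4 after Paneth cells, 284 ± 395 CPM with 0, 116 and 735 CPM in mice 1, 3 and 6. The signal came from 4 of 34 cells, all in the control gate. A cell with 79 Reg4 UMIs carried 1701 UMIs of Gcg (proglucagon), a cell with 44 carried 129 UMIs of Tac1 and 47 of Tph1 (tachykinin and the enzyme of serotonin synthesis), and a cell with 24 carried 5380 UMIs of Sst (somatostatin). The fourth had 1 Reg4 UMI and 55 of Tph1. The ratio of Reg4 to Defa24 in enteroendocrine cells was 1.16 in pool 1 and 6.93 in pool 2, against 0.0198 and 0.0100 in Paneth cells. These ratios rest on the 4 cells above and on 38 and 15 Defa24 UMIs. The part of free RNA or of mixed cells in the enteroendocrine values was not tested. The 7 clone cells of this class had 0 Reg4 UMIs, which allows up to 36.5 CPM.

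The study's design asks how the progeny of Lgr5-expressing cells differ from unrecombined epithelium after 48 h and 72 h. Over all cells, Reg4, Reg3g and Reg3b were lower in clones than in control cells in 7 of 8 mice, and Reg4 and Reg3g passed the test when the mouse was fitted as a block. Values over all cells mix classes, and fewer cells of a type and less RNA per cell cannot be told apart in them. At 48 h, Reg4 had 0, 8.19, 0 and 0 CPM in clones of mice 1 to 4, against 58.3, 55.7, 42.05 and 89.96 CPM in their control cells. At 72 h, it had 3.67, 186, 49.0 and 24.0 CPM in clones of mice 5 to 8, against 37.4, 113, 145 and 97.2 CPM in control cells. The groups did not overlap at 48 h, and at 72 h mouse 6 was higher in clones. The clone sums at 48 h are small, and a count of 0 in them allows up to 10.0 to 38.7 CPM. In mouse 1 the clones were 4 cells, all of the stem class, and in mouse 4 they were 8 cells, 4 of them stem. Neither group held a Paneth, goblet or enteroendocrine cell. The lowest control value at 48 h was 42.05 CPM. The part of the small clone sums in this separation was not tested. The share of all genes whose groups did not overlap is not given here, so the separation cannot be set against it. Summed over the 48 h mice, clones had 2 Reg4 UMIs of 747178 and control cells 764 of 12808339, a ratio of 0.0449 with a 95% counting interval of 0.00542 to 0.163.

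Reg3g at 48 h had 206, 2384, 5304 and 971 CPM in clones of mice 1 to 4, against 597, 3868, 3728 and 4387 CPM in control cells. At 72 h it had 2236, 1341, 276 and 4529 CPM in clones of mice 5 to 8, against 3757, 1711, 1010 and 7033 CPM in control cells. Clones were lower in every mouse but mouse 3, whose clones are the cells with few UMIs and mixed hashtags described above. Reg3b followed the same pattern. It had 116, 3286, 13565 and 3000 CPM in clones of mice 1 to 4, against 1757, 6776, 5782 and 7465 CPM in control cells, and 4443, 3087, 545 and 8911 CPM in clones of mice 5 to 8, against 8340, 3569, 1406 and 11996 CPM in control cells. The ranges of clones and control cells overlapped at both times for both genes. The clones of mouse 1 were all stem cells, and the control stem cells of that mouse had 160 CPM of Reg3b and 282 CPM of Reg3g.

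**Figure D5:**
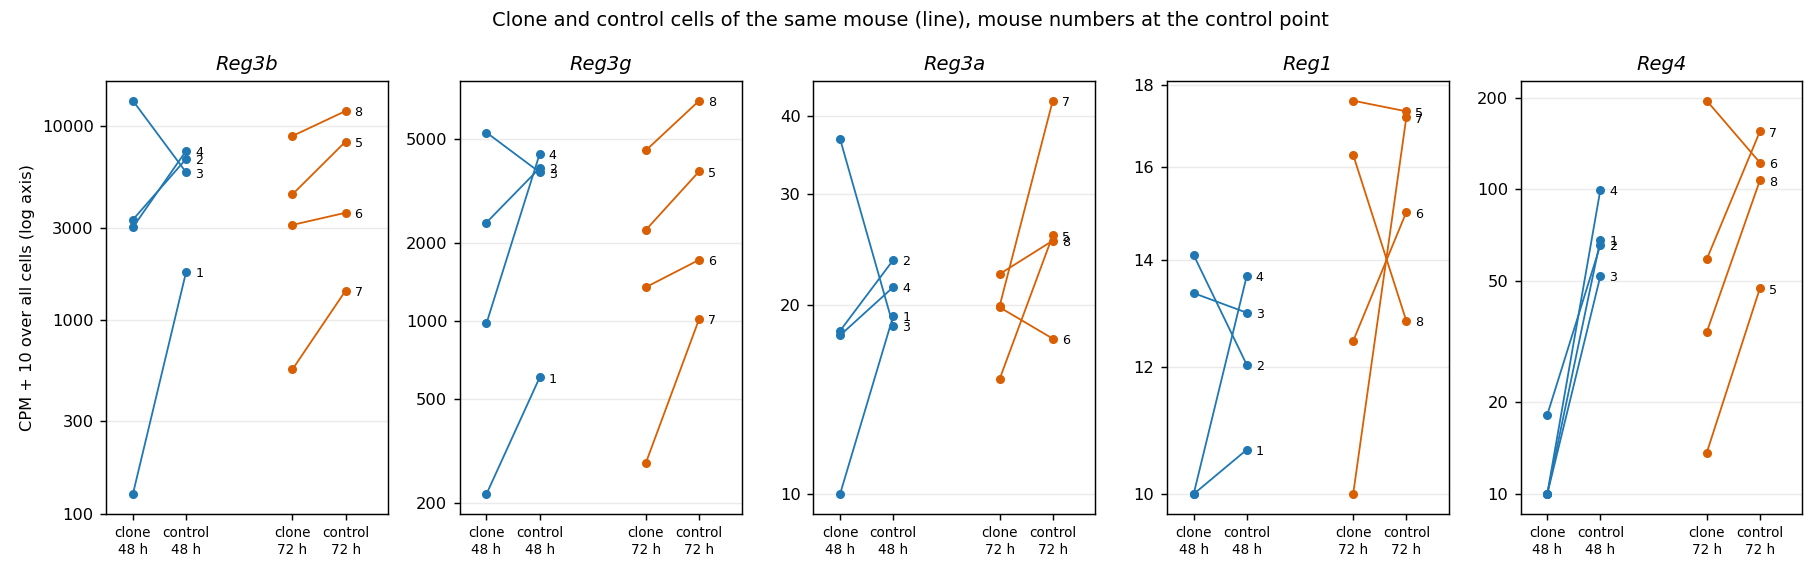
Level of each gene over all cells of a mouse (CPM + 10, log axis), clones at left and control cells at right of each line, at 48 h (blue) and 72 h (orange); numbers are mice. Lines rise to the right, so control cells are higher, in 7 of 8 mice for Reg3b, Reg3g and Reg4, and in both directions for Reg1.

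In edgeR's quasi-likelihood test with pool as a covariate, 0 of 5 members were called at 48 h (adjusted p under 0.05), where 0% of all 10606 genes tested were called, and 0 of 5 at 72 h, where 0% were called. Over both times 0 of 5 were called, against 0.00943% of all genes. At each of the 3, 1 member had an unadjusted p under 0.05: Reg4 at 48 h, Reg3a at 72 h and Reg4 over both times. DESeq2 called 1 member, Reg4, at 48 h and over both times and 0 at 72 h. Of all genes, DESeq2 called 66 at 48 h, 270 over both times and 8 at 72 h, more than edgeR did. The log2 difference of clones from control cells over both times was -2.71 ± 1.01 for Reg4 (SE; edgeR adjusted p = 0.193), -0.65 ± 0.60 for Reg3g (0.644) and -0.49 ± 0.64 for Reg3b (0.771).

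With the mouse as a block, which pairs the clone and control cells of an animal, 2 of 5 members were called over both times, both lower in clones, against 3.2% of all genes. Reg4 differed by -2.92 ± 0.62 on the log2 scale (edgeR adjusted p = 0.0212) and Reg3g by -0.95 ± 0.23 (0.0369), while Reg3b had -0.92 ± 0.31 (0.120). Within a time the block called 0 of 5 members at 48 h (0.0849% of all genes) and 0 of 5 at 72 h (0.849%), with unadjusted p under 0.05 for 3 members each. With a mouse left out of the blocked fit, Reg4 was no longer called without mouse 1, 2 or 4, and Reg3g was called only without mouse 3 or mouse 6. Without mouse 3, Reg3b was called as well, with -1.30 (adjusted p = 0.0041 in the blocked edgeR fit). The shares of all genes called with a mouse left out are not given here, so these counts cannot be set against them.

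Over both times and with cells pooled over mice, the classes with the highest levels were a smaller share of clones. At 48 h this did not hold for the classes highest in Reg3b and Reg3g. Paneth cells were 2.02% of clones (15 of 741) and 3.75% of control cells (47 of 1252), with 1 of 110 clones at 48 h and 14 of 631 at 72 h. By mouse, their share was lower in clones in mice 3, 4, 5, 7 and 8. It was higher in clones in mouse 6 (7.5% against 3.47%) and in mouse 2 (6.67%, from 1 cell, against 2.70%), and mouse 1 had no Paneth cells. Enterocytes were 5.80% of clones and 10.4% of control cells over both times, and 9.09% and 8.19% at 48 h, where 9 of the 10 clone cells came from mouse 3. The unnamed cluster was 3.64% of clones and 5.03% of control cells over both times, and 5.45% and 4.44% at 48 h. Enteroendocrine cells were 0.945% and 2.16% over both times. Stem cells, which were low in Reg3b, Reg3g and Reg4, were 32.8% of clones and 15.4% of control cells over both times. Their share was higher in clones in every mouse. Goblet cells were 10.3% of clones and 14.4% of control cells, secretory progenitors 8.77% and 13.7%, and dividing cells 34.0% and 32.3%. Within Paneth cells, summed over mice, Reg4 had 658 CPM in clones (259 UMIs) and 914 CPM in control cells (1356 UMIs). With a mouse left out these ran between 445 CPM (without mouse 6) and 928 CPM (without mouse 8) in clones and between 800 and 1048 CPM in control cells, so the ranges overlap. Within progenitors Reg4 had 50.7 CPM in clones and 47.6 CPM in control cells, which were 30.7 CPM without mouse 7 in clones and 22.1 CPM without mouse 1 in control cells. Reg3b in summed enterocytes had 35488 CPM in clones and 30948 CPM in control cells. The part of these class shares in the lower levels over all cells was not tested.

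Reg3a had 0, 8.19, 26.8 and 7.89 CPM in clones of mice 1 to 4, against 9.22, 13.6, 8.53 and 11.4 CPM in control cells. At 72 h it had 5.24, 9.84, 9.91 and 12.4 CPM in clones of mice 5 to 8, against 15.8, 7.68, 32.3 and 15.3 CPM in control cells. It was lower in clones in 3 of 4 mice at each time, by -0.92 ± 0.38 on the log2 scale at 72 h (edgeR adjusted p = 0.601), while at 48 h the fit gave 0.41 ± 0.71. Reg1 was lower in clones in 4 of 8 mice, with 2 UMIs in all 48 h clones.

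Mice with high Reg3b and Reg3g in control cells tended to have high levels in clones, although the 2 came from different pools. Over the 8 mice, Reg3b had Pearson's r = 0.83 (permutation p = 0.0136, adjusted over 5 genes 0.0339) and Spearman's rho = 0.64 (permutation p = 0.0962), and Reg3g r = 0.88 (permutation p = 0.00494, adjusted 0.0247) and rho = 0.60 (permutation p = 0.132). Without the 2 mice farthest from the median, r was 0.32 for Reg3b and 0.47 for Reg3g, so the relation rests on those mice. Reg4 had r = 0.71 (permutation p = 0.0442, adjusted 0.0737) and rho = 0.66 (permutation p = 0.0923), with r = 0.70 without those 2. Reg1 had r = 0.18 (permutation p = 0.652) and rho = 0.12 (permutation p = 0.794), and Reg3a r = -0.02 (permutation p = 0.952) and rho = -0.05 (permutation p = 0.935). Each pool held the clones of 4 mice, too few for a value within pools.

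Within a class, the contrast could be tested at 72 h in dividing and stem cells. The edgeR fit with pool called 0 members in dividing cells (0% of 9006 genes) and 0 in stem cells (0% of 6619 genes), with 0 members at an unadjusted p under 0.05, and DESeq2 called 0. With the mouse as a block, 1 of 3 members tested in dividing cells was called, Reg3g, which was lower in clones by -0.78 ± 0.15 (edgeR adjusted p = 0.00465), against 0.822% of all genes. The fit rests on 3 mice with at least 10 cells in both gates and 2 residual degrees of freedom between sums. Reg3g in dividing cells had 1530, 260 and 2226 CPM in clones of mice 5, 7 and 8, against 2485, 359 and 4961 CPM in control cells. Mouse 6, with 9 dividing clone cells, had 1047 CPM in clones and 507 CPM in control cells. In those clones 188 of 203 UMIs lay in 1 cell. Without the top cell of each group, mouse 6 had 91.5 CPM in clones and 392 CPM in control cells. Mice 5, 7 and 8 then had 1323, 234 and 1881 CPM in clones, against 1922, 235 and 4297 CPM in control cells. In stem cells the block called 0 of 2 members (0.0302% of all genes), with no unadjusted p under 0.05.

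Between tracing times no member was called. In clones 72 h against 48 h, 0 of 5 members (0% of all genes) passed edgeR's test, and in control cells 0 of 5 (0.0849%). The log2 difference of Reg4 in clones was 4.41 ± 2.01 (unadjusted p = 0.0417, adjusted 0.781 in edgeR), with 2 UMIs behind the 48 h value. In control cells Reg3a had 0.82 ± 0.37 and Reg1 1.34 ± 0.59, each with an unadjusted p under 0.05 in edgeR and an adjusted p of 0.877. DESeq2 called 0 in either. The change of the clone-control difference between times called 0 of 5 members in edgeR (0% of all genes), with 0 at an unadjusted p under 0.05, and 0 with the block (0.0471%) and in DESeq2. Different mice were used at each time.

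The genes with the pattern most like each member were found by Pearson correlation of log2(CPM + 10) over 57 sums of control cells by class and mouse, among 6035 genes. These sums share mice and classes, so the values are descriptions. Reg3b and Reg3g were nearest to each other (r = 0.94). Next came St3gal4 (0.77) and Cd38 (0.77) for Reg3b, and Prss32 (0.77) and St3gal4 (0.75) for Reg3g. Reg3a was nearest to the brush border peptidases Dpep1 (0.86) and Mep1b (0.84) and to Maf (0.83), a transcription factor. Reg4 was nearest to the Paneth products Defa17 (0.84) and Lyz1 (0.83) and to Prxl2a (0.79). Reg1 was nearest to the cell division genes Cenpe (0.65), Cdc20 (0.65) and Birc5 (0.64).

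Genes of the signals known to raise Reg3 genes were counted next. Of 12 cytokine receptor and STAT3 genes, 11 passed the filter and 0 were called in clones against control cells over both times, without or with the block. Their median log2 difference with the block was -0.21, against -0.04 over all genes. Il17rc, a subunit of the interleukin-17 receptor, had 128 CPM in control enterocytes and 20.9 to 72.1 CPM in the other classes. Stat3 had 111 CPM in Paneth cells and 43.8 CPM in enterocytes. Of 11 Toll-like receptor and MyD88 genes, 7 were tested and 0 called (median 0.20 with the block).

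Among 14 epithelial genes known to be induced with Reg3 genes, 7 were tested. With the block, 0 were called over both times (3.2% of all genes) and 1 at 72 h (0.849% of all genes), Saa1 (serum amyloid A), lower in clones by -1.41 ± 0.32 (edgeR adjusted p = 0.0468). In dividing cells at 72 h Duoxa2, needed for the oxidase Duox2, was lower in clones with the mouse as a block, by -1.09 ± 0.26 (edgeR adjusted p = 0.0282; 0.822% of all genes called, 3 mice and 2 residual degrees of freedom). Without the block it was not called. Saa1 shared the enterocyte pattern, with 56.7 CPM there and at most 5.34 CPM in any other class. Nos2, which makes nitric oxide, had 40.3 CPM in enterocytes, 27.5 in stem and 25.7 in dividing cells, and Fut2, a fucosyltransferase, had 52.1 to 90.1 CPM in progenitor, Paneth, goblet and tuft cells and 6.62 CPM in enterocytes.

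Of 12 other antimicrobial and lectin products, 10 were tested. With the block over both times, where 3.2% of all genes were called, 2 were lower in clones, the goblet lectin Zg16 (-2.09 ± 0.37) and the Paneth protease Mmp7 (-1.12 ± 0.23), and 1 was higher, the sensor Nlrp6 (0.62 ± 0.10). Retnlb, a goblet product, was higher in clones at 72 h (1.40 ± 0.27), where 0.849% of all genes were called. Of 10 enteroendocrine genes 7 were tested and 4 were lower over both times (again against 3.2% of all genes), Chgb (-3.15 ± 0.83), Gcg (-2.33 ± 0.47), Tac1 (-1.82 ± 0.34) and Sct (-1.30 ± 0.28), all with edgeR adjusted p under 0.05 and the mouse as a block. Of the 6 products used as references for free RNA, 5 were tested and 3 were lower, Muc2, Tff3 and Apoa1. Without the block 0 genes of these lists were called. Extl3 and Egfr, proposed receptors of Reg proteins, had 5.48 to 15.6 and 2.00 to 23.4 CPM across classes and were not called. The other Reg genes of the cluster were nearly silent, with 1 UMI of Reg2 and 6 of Reg3d in all kept cells.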

How the data were processed

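Both libraries are pools of hashtagged cells. The submitters' processing notes name mm10 and Cell Ranger 6.1.2. The deposited values are raw UMI counts, one set for genes and one for the 8 hashtag antibodies, and no cell annotation was used. How the authors called hashtags and filtered cells is not given in the sources used here.

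Hashtags were called per pool with HTODemux (Seurat 5.3.0, R 4.3.3, quantile 0.99). A single hashtag was found on 2257 barcodes of pool 1 and 1772 of pool 2, more than 1 on 333 and 160, and none on 752 and 178. Each hashtag stands for a mouse in the labels, which also tie it, within a pool, to a gate. A barcode was kept with 1 hashtag, 1000 or more UMIs, 500 or more genes and a mitochondrial share below 20%. The pools shared 1 barcode, and 0 kept cells. Clustering used scanpy 1.11.5 (python 3.11.15; 2000 variable genes without the 5 members, 30 components, 15 neighbours, Leiden resolution 1.0). A cluster was named by at least 3 markers among its 50 leading genes with at least 25% of its markers raised 1.5-fold. Where several marker lists met this rule, the list with the largest share raised was taken. The exception was secretory progenitor, which was taken where its list met the rule and Dll1 was among the 10 leading genes. No doublet caller was run beyond the hashtags.

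The 16 sums of counts, 1 for each mouse in each gate, were tested, two-sided, with edgeR 4.0.16 (filterByExpr, TMM, quasi-likelihood F-test, group and pool), with adjusted p over all genes and calls under 0.05. Both gates of a mouse come from the same animal, so the mouse was also fitted as a block. Within a mouse, the residuals of both gates correlated across genes at 0.017 to 0.432. Within classes, sums of at least 10 cells were used where each group had 3. DESeq2 1.42.0 was an alternative test. Levels by class used log2(CPM + 10) and exact sign flips over mice. On simulated counts edgeR recovered 18% of log2 changes of 1 and 65% of changes of 2 at 48 h (4 false calls of 10440 genes), and 65% and 96% at 72 h (10 of 10474). Intervals (Wilson) and the limits set by a count of 0, taken as 3 UMIs, cover counting error only.

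Named genes were the 5 members, the 3 genes most like each (mean of at least 20 CPM), called members of the gene lists and at most the 3 most abundant of each list. Genes of the lists given by class were in part chosen after their values were seen. The members and lists were chosen with earlier results of these data known. All 5 identifiers matched GENCODE M21 (GRCm38), which gave the positions; promoters are RefSeq's (GRCm38.p6).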

Additional observations from a re-analysis of the deposited data

Results flagged for a closer look

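In 13 of 69 groups of 4 to 8 mice, the highest value lay far from the rest by Dixon's test, where chance gives about 1 in 20 groups. Many of these groups hold few UMIs, and a single mouse with any UMI then stands apart. Over all cells, Reg4 in clones at 48 h had 8.19 CPM in mouse 2 and 0 in the other mice. Among clones by class, Reg1 in goblet cells had 4.14 CPM in mouse 5 and Reg4 in dividing cells 2.84 CPM in mouse 5.

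In control cells by class, Reg3a was highest in the enterocytes of mouse 7 (275 CPM) and in the stem cells of mouse 2 (24.3 CPM). Reg3b and Reg3g stood apart in the tuft cells of mouse 2, with 7213 and 3105 CPM; 1 of its 6 cells held 640 of 655 Reg3b UMIs and 276 of 282 Reg3g UMIs. Reg4 stood apart in the secretory progenitors of mouse 1 (208 CPM) and the dividing cells of mouse 1 (16.8 CPM). It also did so in the stem cells of mouse 2 (12.2 CPM), the unnamed cluster of mouse 6 (3.77 CPM) and the enterocytes of mouse 4 (2.26 CPM). Reg1 in enterocytes had 3.73 CPM in mouse 5. The causes were not tested.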

How the results depend on the processing

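The pool-adjusted edgeR fit called 0 members in every contrast, also with any mouse left out, and the alternatives that moved this were the following. The DESeq2 Wald test called 1 member at 48 h and 1 over both times. Without the filter on low counts, edgeR called 2 at 48 h, 4 at 72 h and 3 over both times, and 1 each in clones over time, in control cells over time and in the change of the difference. That fit tested every gene with a count, more than the 10606 that passed the filter. Its shares of all genes are not given here, so these member counts cannot be set against them. For clones over time, control cells over time and the change of the difference, its counts over all genes are not given either. Over all genes, the pool-adjusted fit called 0 at 48 h, 0 at 72 h and 1 over both times, of 10606 tested. These counts were 66, 8 and 270 with DESeq2, 427, 297 and 775 without the filter, 9, 90 and 339 with the mouse as a block, and 95, 198 and 477 with block and pool. Over both times they were 24 without pool, 29 and 159 with mitochondrial limits of 10% and 50%, and 70 where the leading hashtag had to reach 70%. With the mouse as a block, 2 members were called over both times, and 2 with pool kept in the block, a fit chosen after seeing the data. In the block with a mouse left out, the count over both times was 3 without mouse 3, 2 without mouse 6, 1 without mouse 5, 7 or 8, and 0 without mouse 1, 2 or 4. At 48 h it was 2 without mouse 3 and 1 without mouse 6, and at 72 h 1 and 1. The shares of all genes called in these left-out fits are not given here. With all mice the block called 3.2% of all genes over both times, 0.0849% at 48 h and 0.849% at 72 h. Within classes the block called 1. The cause was not tested.

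Reg4 and Reg3g kept their sign at 48 h, 72 h and over both times under every alternative run over all cells, and Reg3b did except at 48 h. With a mouse left out, the 48 h difference ran between -1.36 and 0.12 for Reg3b, -0.88 and 0.86 for Reg3a, and -0.19 and 0.64 for Reg1. For Reg1 it ran between -1.31 and 0.21 at 72 h and between -0.52 and 0.19 over both times. In dividing cells it ran between -0.87 and 1.01 for Reg3b and -0.83 and 0.40 for Reg3g, and in stem cells between -1.49 and 1.36 and between -1.24 and 0.70. Reg3a at 48 h was -0.93 with the block without mouse 3 and -0.46 where the leading hashtag had to reach 70%. Reg1 at 48 h was -0.028 with the block, -0.0089 with the block and pool, and -0.63 with a mitochondrial limit of 50%. With the block and mouse 2, 3, 6, 7 or 8 left out it was -0.57, -0.16, -0.018, -0.044 and -0.021. Reg1 at 72 h was 0.31 with the block without mouse 7, and over both times 0.12 and 0.13 with the block without mouse 4 and without mouse 7, and 0.00042 with at least 2000 UMIs. Reg3g in stem cells was 0.27 at resolution 0.6.

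The class with the highest level was the enterocyte for Reg3a, Reg3b and Reg3g and the Paneth cell for Reg4 in 18 of 18 settings. At resolution 0.6 the Paneth cluster held 18 cells, against 62 at resolution 1.0. With a mitochondrial limit of 50% the mean log2 level of Reg4 in Paneth cells was 7.84, against 9.74. Reg1's highest class was dividing in 8 settings, unnamed in 9 and stem in 1. The share of Paneth cells with Reg4 was 40.3% at 1000 UMIs and 71.7% at 4000 UMIs, against 54.8% at 2000, and that of enterocytes with Reg3a 5.20% and 22.2%, against 12.7%. At 48 h, clones of 3 mice held 4 to 15 cells, so 3 UMIs there correspond to 12.3 to 38.7 CPM.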
